A study of Mus musculus with 2 samples.

Results

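Guanylate-binding proteins are large GTPases whose genes lie in clusters on mouse chromosomes 3 and 5. Of the family, Gbp2, Gbp3, Gbp4, Gbp5, Gbp6, Gbp7, Gbp8 and Gbp9 are described here. These are 8 of 32285 genes in the single-cell count tables, chosen by symbol, and all 8 had a row. The series describes spleens of C57BL/6 mice taken 8 days after infection with the persistent lymphocytic choriomeningitis virus strain LCMV-cl13. One group carried wild type Ptpn22 (PEP-WT) and the other the R619W allele of Ptpn22 made by CRISPR/Cas9 editing (PEP-619WW), which models a human allele linked to autoimmunity. Both groups were infected and no mock-infected library was analysed here. By the methods, the spleens of 4 to 5 mice per genotype were pooled and sorted for live CD45+ cells before 10x Genomics 3′ sequencing, in which each captured transcript carries a unique molecular identifier (UMI). Per genotype 2 tables were deposited, called run 1 and run 2 here, and markers of tissue and sex in run 2 went against that description. Each genotype thus has 1 library in each run and no animal can be told from another.

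Guanylate-binding proteins are among the most strongly induced products of interferon gamma, whose receptor signals through the kinases Jak1 and Jak2 and which also induces the transcription factor Irf1. Type I interferon, made early in viral infection, induces them as well. The proteins coat pathogen-containing vacuoles and cytosolic bacteria and help to activate inflammasomes, the caspase complexes that trigger pyroptosis, and they work beside a second interferon-induced family, the immunity-related GTPases.

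In GENCODE vM21 on the mouse build GRCm38 (mm10), Gbp5 (ENSMUSG00000105504, chromosome 3, 142493978 to 142522344), Gbp7 (ENSMUSG00000040253, 142530342 to 142550149), Gbp3 (ENSMUSG00000028268, 142560026 to 142573209) and Gbp2 (ENSMUSG00000028270, 142620602 to 142638008) follow each other on the plus strand. Ptpn22, the edited gene, is on the same chromosome and strand at 103859795 to 103912247. Gbp8 (ENSMUSG00000034438, chromosome 5, 105014150 to 105139540), Gbp9 (ENSMUSG00000029298, 105077630 to 105139539), Gbp4 (ENSMUSG00000079363, 105115767 to 105139586) and Gbp6 (ENSMUSG00000104713, 105270702 to 105293698) lie on the minus strand, and the gene bodies of Gbp8, Gbp9 and Gbp4 overlap. The members are protein-coding paralogs, so it was counted how much of the last 500 transcript bases, where 3′ reads fall, is shared. Of 411 stretches of 90 bases there, 65.5% of those of Gbp6 also occur in a transcript of its neighbour Gbp10, and 0% of those of the other 7 members occur in another gene of the family. Counts of Gbp6 and Gbp10 are therefore less certain, since reads from shared stretches do not tell those genes apart. Exons of Gbp4, Gbp8 and Gbp9 share 0.814% to 1.77% of their bases on the same strand.

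RefSeq promoter windows on GRCm38.p6, from 250 bases before to 50 after a start, were at hand for 4 of the 8 members, Gbp2, Gbp3, Gbp5 and Gbp7. They are shown because interferon-induced factors bind short motifs near the start of such genes and because these members are compared below. Capitals mark matches on either strand to the core of the interferon-stimulated response element, which is GAAA, any 2 bases and GAAA, and to TTCNNNGAA, a gamma-activated site, which reads the same on both strands. All sequences are on the plus strand.
Gbp2, chr3:142620413-142620712: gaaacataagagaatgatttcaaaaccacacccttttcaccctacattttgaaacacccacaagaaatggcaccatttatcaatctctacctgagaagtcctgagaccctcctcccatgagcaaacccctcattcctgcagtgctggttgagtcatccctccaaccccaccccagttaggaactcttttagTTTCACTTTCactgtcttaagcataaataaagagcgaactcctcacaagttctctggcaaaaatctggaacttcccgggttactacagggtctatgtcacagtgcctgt
Gbp3, chr3:142559794-142560093: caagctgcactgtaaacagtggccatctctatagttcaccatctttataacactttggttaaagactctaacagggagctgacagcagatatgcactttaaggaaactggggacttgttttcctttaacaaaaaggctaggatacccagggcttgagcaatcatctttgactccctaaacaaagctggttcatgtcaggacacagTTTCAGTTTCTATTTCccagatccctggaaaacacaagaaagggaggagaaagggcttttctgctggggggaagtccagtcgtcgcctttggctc
Gbp5, chr3:142496684-142496983: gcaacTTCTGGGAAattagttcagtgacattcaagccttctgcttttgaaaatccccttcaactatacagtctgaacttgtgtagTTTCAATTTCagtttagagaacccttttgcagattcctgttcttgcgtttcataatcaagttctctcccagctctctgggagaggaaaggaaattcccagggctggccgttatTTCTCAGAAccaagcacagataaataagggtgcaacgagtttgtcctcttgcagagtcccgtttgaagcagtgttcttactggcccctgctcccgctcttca
Gbp7, chr3:142530086-142530385: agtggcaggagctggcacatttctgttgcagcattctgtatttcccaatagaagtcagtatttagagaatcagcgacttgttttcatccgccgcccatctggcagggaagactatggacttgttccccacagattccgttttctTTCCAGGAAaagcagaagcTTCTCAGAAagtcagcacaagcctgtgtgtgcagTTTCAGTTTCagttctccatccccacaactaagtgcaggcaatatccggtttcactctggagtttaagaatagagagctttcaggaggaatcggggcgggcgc

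Each of the 4 windows holds the response element core, which begins 59 bases before the start in Gbp2 (TTTCACTTTC), 53 bases before it in Gbp7 (TTTCAGTTTC) and 165 bases before it in Gbp5 (TTTCAATTTC). In Gbp3 a pair of overlapping matches begins 45 and 39 bases before the start, and a further RefSeq window of Gbp3, at an alternative start, holds none. Only Gbp5 and Gbp7 hold TTCNNNGAA, with 2 matches each, among these 5 windows. Over 32851 promoter windows of the same length, 3.44% hold the response element core, 8.30% hold TTCNNNGAA and 0.454% hold both. A match describes the letters and is not shown to be a bound site.

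Barcodes, which stand for cells, were assigned to 6 gates by their own UMIs, and a barcode could pass more than 1 gate. CD8 T barcodes held Cd3e and Cd8b1, CD4 T barcodes Cd3e and Cd4, and B barcodes Cd79a and Ms4a1. Plasma barcodes held at least 5 UMIs of Mzb1, monocyte or macrophage barcodes at least 5 of Lyz2, and neutrophil barcodes at least 20 of S100a8 and S100a9 together. Levels are UMIs per 1000000 UMIs of the gate (CPM) with exact Poisson 95% intervals, and ratios are PEP-619WW over PEP-WT on the log2 scale with exact conditional 95% intervals. Both cover counting error only. With 1 library per genotype and run, no difference between genotypes could be tested against replicate error, and a gene is counted as higher or lower here only when it passed 1.5-fold.

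The runs did not look like the same material. The number of barcodes was 14821 in PEP-WT and 8576 in PEP-619WW of run 1, and 9539 and 11029 in run 2. The cell numbers given in the methods are those of run 2 and not of run 1. Depth was 55504449 to 77916082 UMIs, and any pair of libraries shared 19 to 49 barcode sequences. The labels give the tissue as liver, the line as Jurkat (a human T cell line) and the cells as CD45+ cells from a tumor, whereas the series describes spleen. All reads here were counted on mouse genes, and Alb of hepatocytes and Clec4f of Kupffer cells were at 0 CPM in all 4 libraries. Run 1 contained 6937 PEP-WT and 3144 PEP-619WW B barcodes. Run 2 contained 2 and 503, and 68.0% of its PEP-WT barcodes passed the Lyz2 gate. In run 2, 274 PEP-WT and 27 PEP-619WW barcodes held at least 3 of 6 melanocyte genes, against 0 and 0 in run 1. Xist was at 826 and 803 CPM in the PEP-WT and PEP-619WW libraries of run 1 and at 261 and 0.0901 CPM in run 2. Ddx3y, a gene of the Y chromosome, was at 0 CPM in both libraries of run 1 and at 30.0 and 73.5 CPM in run 2. The PEP-WT library of run 2 thus held both markers of sex, and the run 2 libraries differ in these markers as well as in genotype. The edited codon cannot be seen in gene counts. The part of these differences in the values below was not tested, and each result is given for run 1 and run 2 apart.

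Gate labels were checked on markers the gates did not use. In run 1 Trac was present in 89.6% and 91.7% of CD8 T barcodes, Cd79b in 96.9% and 97.2% of B barcodes and Retnlg in 85.5% and 88.5% of neutrophil barcodes, PEP-WT first. Trac was present in 88.4% and 95.4% of CD4 T barcodes, Jchain in 72.2% and 86.2% and Sdc1 in 37.0% and 47.1% of plasma barcodes, and Csf1r in 55.4% and 44.5% of monocyte or macrophage barcodes. Ly6g, a defining neutrophil marker, was present in 37.5% and 43.2% of run 1 neutrophil barcodes but in 3.22% and 2.43% of those of run 2. The run 2 neutrophil gate is for that reason called the S100a8/S100a9 gate below. Gates overlapped, and another gate was also passed by 73.6% (PEP-WT) and 75.7% (PEP-619WW) of the neutrophil barcodes of run 1, most often the Lyz2 gate (554 and 562 barcodes). So it was for 67.4% and 59.8% of plasma barcodes, most often the B cell gate (1422 and 831), for 55.7% and 64.7% of monocyte or macrophage barcodes and for 25.1% to 33.8% of those of the other gates. No doublet caller was run.

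In run 1 the family was highest in the myeloid gates. The sum of the 8 genes was 1851 CPM (95% interval 1816 to 1888) in PEP-WT neutrophils, 1555 (1536 to 1575) in monocytes or macrophages, 683 (675 to 692) in B cells, 666 (639 to 695) in CD4 T cells, 647 (634 to 661) in CD8 T cells and 423 (416 to 430) in plasma cells. In this order B cells could not be told from CD4 T cells, nor CD4 from CD8 T cells, by their counting intervals. In PEP-619WW, monocytes or macrophages came first at 1454 CPM (1433 to 1474), ahead of neutrophils at 1295 (1265 to 1325). These gates shared 562 barcodes in that library, so their intervals do not compare separate cells. B cells at 659.9, CD4 T cells at 606, CD8 T cells at 555 and plasma cells at 400.2 CPM followed in the same order as in PEP-WT, with no overlap of neighbouring intervals. In both genotypes plasma cells had the least.

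Barcodes that passed exactly 1 gate gave a wider range. The family sum was then 3924 CPM in PEP-WT and 2486 CPM in PEP-619WW neutrophils, 2202 and 2370 in monocytes or macrophages, 834 and 922 in B cells, 606 and 602 in CD4 T cells, 552 and 515 in CD8 T cells and 241 and 217 in plasma cells. The myeloid levels were thus higher, and the plasma levels lower, than in the gates as first drawn. In PEP-619WW the order of the myeloid gates also turned, with neutrophils ahead of monocytes or macrophages.

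Hemoglobin-rich barcodes, with at least 25% of UMIs from hemoglobin genes, were used as a background for free RNA. Hemoglobin itself made up 67.8% of their UMIs in PEP-WT and 58.2% in PEP-619WW of run 1, which lowers their values per total UMI. Their family sum was 257 CPM (230.4 to 286) in 583 PEP-WT barcodes of run 1 and 153 (83.6 to 257) in 26 PEP-619WW barcodes, and the 241 CPM of PEP-WT plasma barcodes of exactly 1 gate lay below the former. Per 1000000 UMIs other than hemoglobin and immunoglobulin it was 809 (725 to 900.3) and 369 (202 to 619). On that scale PEP-WT neutrophils at 1909 and monocytes or macrophages at 1637 stood above the background, whereas B cells at 726, CD4 T cells at 695, CD8 T cells at 679 and plasma cells at 514 did not. In PEP-619WW the myeloid gates (1362 and 1564) and B cells (725) had intervals clear of that of the background, and CD4 T cells at 641 (610.5 to 672), CD8 T cells at 595 and plasma cells at 503 did not. In UMIs of the family per barcode, hemoglobin-rich barcodes had 0.576 and 0.538 and the 6 gates 3.50 to 15.5, in deeper barcodes. Per UMI the lymphoid levels of PEP-WT were thus not separated from this background, while per barcode all 6 gates held more of the family than hemoglobin-rich barcodes. The part of free RNA in the lymphoid levels was not tested. A UMI of any member was found in 94.8% of PEP-WT and 86.5% of PEP-619WW neutrophil barcodes of run 1 (median 3482 and 3664 UMIs per barcode) and in 24.0% and 30.8% of hemoglobin-rich barcodes (median 1885 and 2405). Barcodes with at least 1000 UMIs were then thinned to 1000 UMIs, and shallower ones were left out. The latter were 30 of 806 and 57 of 864 neutrophil and 95 of 583 and 4 of 26 hemoglobin-rich barcodes, PEP-WT first. The thinned shares were 80.4% (77.4% to 83.1%) and 60.5% (57.0% to 63.9%) in neutrophils and 14.8% and 18.2% in hemoglobin-rich barcodes. Thinned shares were 74.5% and 65.3% in monocytes or macrophages, 49.7% and 49.2% in B cells, 47.2% and 48.3% in CD4 T cells, 45.4% and 41.1% in CD8 T cells and 32.6% and 30.0% in plasma cells. The hemoglobin-rich shares are lowered by hemoglobin in the same way and set no floor for the other gates, and the neutrophil and monocyte or macrophage gates showed the widest gaps between genotypes.

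**Figure D1:**
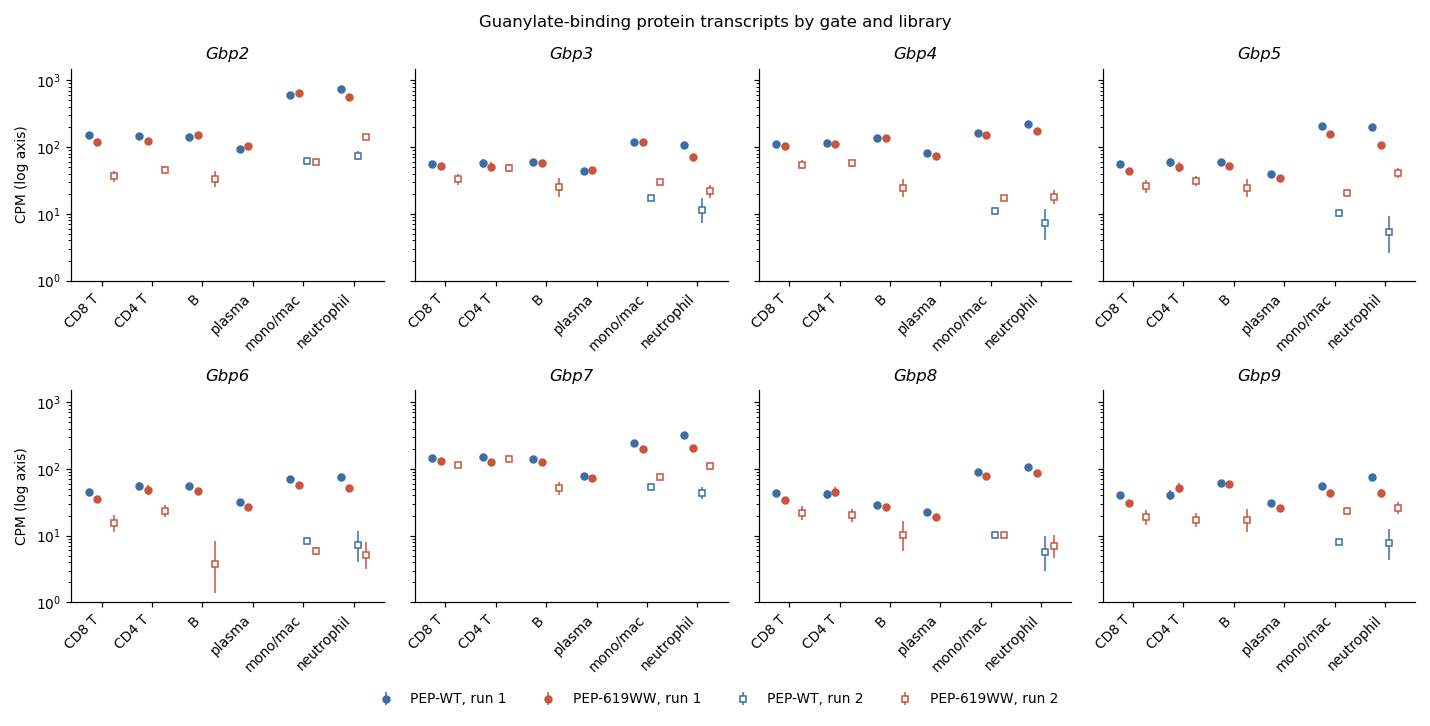
Level of each gene (CPM, log axis) in each gate and library with at least 50 barcodes. Points are single libraries, bars are 95% Poisson intervals, filled circles run 1 and open squares run 2. Gbp2 stands at 559 to 741 in run 1 myeloid gates against 92.6 to 151 in the lymphoid gates, and the run 2 points lie below those of run 1 in nearly every gate.

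Gbp2, which is recruited to pathogen-containing vacuoles, showed the steepest step between lineages. It was at 741 CPM in PEP-WT and 559 CPM in PEP-619WW neutrophils and at 608 and 648 CPM in monocytes or macrophages of run 1. It was at 149 and 121 CPM in CD8 T cells, 147 and 124 in CD4 T cells, 143 and 151 in B cells and 92.6 and 103 in plasma cells. The myeloid gates of both libraries therefore stood above every lymphoid gate. Gbp2 made up 39.1% to 44.6% of the family's UMIs in the myeloid gates and 20.5% to 25.6% in the lymphoid gates of run 1. In run 2 it made up 45.6% and 38.3% in the S100a8/S100a9 gate and 34.1% and 24.9% in the Lyz2 gate, but 11.3% and 11.9% in PEP-619WW CD8 and CD4 T cells. Shares compare 1 gene across gates and do not rank genes against each other.

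Gbp5, which promotes assembly of the NLRP3 inflammasome, was at 203 and 107 CPM in neutrophils and 207 and 159 CPM in monocytes or macrophages of run 1, PEP-WT first. Its lymphoid levels lay between 34.4 and 59.4 CPM. The log2 ratio of Gbp5 was below 0 in all 6 gates of run 1, from -0.16 in B cells to -0.92 in neutrophils, and passed 1.5-fold in neutrophils alone. In CD4 T cells it was -0.23 with an interval that included 0 (-0.56 to 0.09).

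Gbp7, linked to the phagocyte oxidase, was at 325 and 204 CPM in neutrophils, 244 and 198 in monocytes or macrophages, 151 and 125 in CD4 T cells, 146 and 133 in CD8 T cells, 142 and 128 in B cells and 79.2 and 72.7 in plasma cells. The PEP-619WW value was the lower one in each of these 6 gates, past 1.5-fold in neutrophils alone. With barcodes of exactly 1 gate the direction turned in CD8 T cells (log2 ratio 0.00076), B cells (0.078) and plasma cells (0.0084). Gbp7 took a larger part of the family in T cells of run 2 (35.8% and 36.4% in PEP-619WW CD8 and CD4 T cells) than of run 1 (23.9% and 20.6%).

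Gbp3 was at 108 and 70.7 CPM in neutrophils, 119 and 121 in monocytes or macrophages and between 44.6 and 58.9 CPM in the lymphoid gates. Of the chromosome 5 members, Gbp4 was at 219 and 173 CPM in neutrophils, 161 and 149.8 in monocytes or macrophages and 135 and 139 in B cells, and in PEP-619WW its B cell and Lyz2 gate intervals overlapped. Gbp9 was at 74.3 and 44.2 CPM in neutrophils, 55.4 and 43.2 in monocytes or macrophages and 61.3 and 58.7 in B cells, so in PEP-619WW B cells ranked first for this gene, with an interval that overlapped that of CD4 T cells (52.3 CPM). Gbp8 was at 106 and 85.3 CPM in neutrophils, 89.99 and 77.5 in monocytes or macrophages and between 19.1 and 45.1 CPM in the lymphoid gates. Gbp6 ranged from 27.1 to 76.1 CPM, with the reservation on Gbp10 given above.

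**Figure D2:**
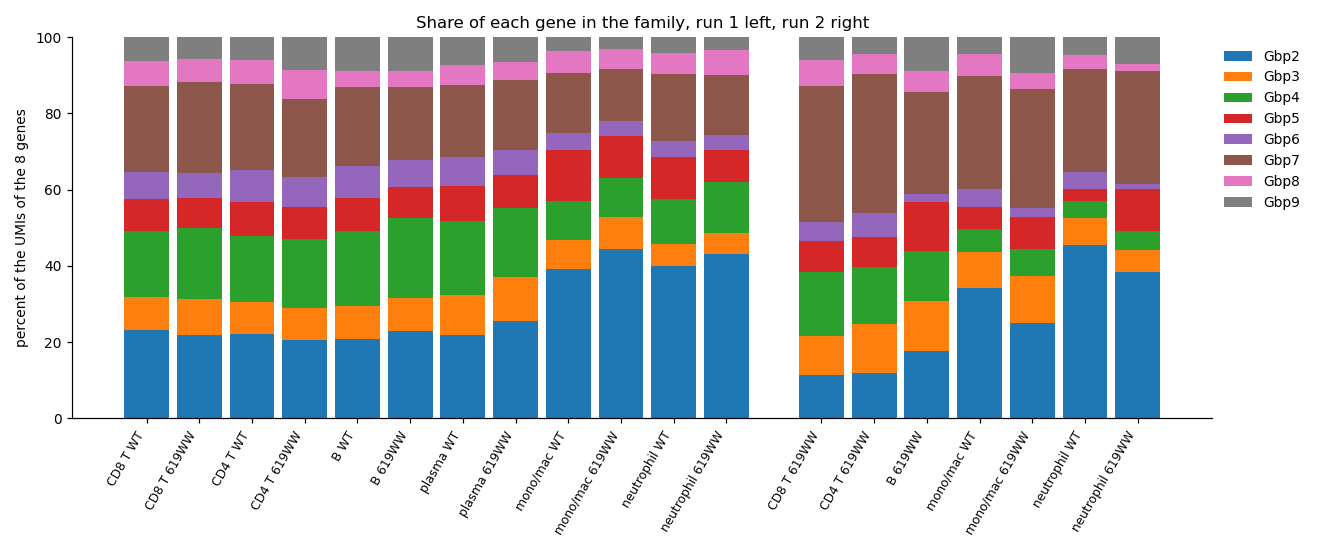
Share of each gene in the UMIs of the 8 genes (percent, stacked to 100) by gate and genotype, run 1 on the left and run 2 on the right, for gates with at least 50 barcodes. The lowest segment, Gbp2, widens from 20.5% to 25.6% in lymphoid gates of run 1 to 39.1% to 44.6% in its myeloid gates.

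Across the 12 gate values of run 1 the levels of the members went together, with Pearson r of log2(CPM + 1) between 0.53 (Gbp2 with Gbp9) and 0.98 (Gbp3 with Gbp5). Over the 7 gate values of run 2 the same pairs had r between -0.68 (Gbp2 with Gbp8) and 0.92 (Gbp3 with Gbp4). These points share libraries and barcodes and give no p. Among 5473 genes with a mean of at least 20 CPM, the genes most like the family sum in run 1 were Soat1 (r = 0.99), Rgs2 (0.99), Wsb1 (0.99), Tor1aip1 (0.98) and Diaph2 (0.98). In run 2 the same 5 genes had r of -0.37, 0.22, -0.08, 0.39 and -0.16. Interferon-induced genes from the lists below varied in this. The r in run 1 and run 2 was 0.98 and 0.71 for Irgm2 (rank 6), 0.98 and 0.84 for Irf1 (rank 10), 0.92 and 0.91 for Ifi47 (rank 315) and 0.85 and 0.92 for Igtp (rank 633), but 0.96 and 0.10 for Oasl2 (rank 51), 0.95 and 0.19 for Iigp1 (rank 100) and 0.94 and 0.13 for Rsad2 (rank 186).

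The comparison of PEP-619WW with PEP-WT asked whether the family stands at another level in mice with the R619W allele. In run 1 the log2 ratio of the family sum was below 0 in every gate. The log2 ratio was -0.05 (95% interval -0.08 to -0.02) in B cells, -0.08 (-0.12 to -0.04) in plasma cells, -0.10 (-0.12 to -0.07) in monocytes or macrophages, -0.14 (-0.23 to -0.05) in CD4 T cells, -0.22 (-0.27 to -0.18) in CD8 T cells and -0.52 (-0.56 to -0.47) in neutrophils. All 6 differences were under 1.5-fold, with 1.43-fold in neutrophils. That call changed in neutrophils with barcodes of exactly 1 gate (-0.66) and with equal weight per barcode (-0.85), both past 1.5-fold. The direction in B cells and in monocytes or macrophages depended on how barcodes were chosen: with barcodes of exactly 1 gate the ratios were 0.15 (0.10 to 0.19) and 0.11 (0.06 to 0.15), higher in PEP-619WW. In the same setting CD4 T cells were at -0.010, CD8 T cells at -0.10 and plasma cells at -0.15. Without the barcodes that also passed the neutrophil gate, a choice made after seeing the data, monocytes or macrophages were at 0.051, and with equal weight per barcode they were at -0.35. Immunoglobulin made up 5.57% and 8.90% of UMIs in B cells and 17.5% and 20.4% in plasma cells of run 1, PEP-WT first. Without immunoglobulin and hemoglobin genes in the total, the ratios of both gates were smaller in size, as given in the last section. The family sum of the hemoglobin-rich background of run 1 was also lower in PEP-619WW, where it rested on 26 barcodes. Its part in the ratios of the gates was not tested.

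In CD8 T cells of run 1, 0 of 8 members passed 1.5-fold, where 3.91% of 10838 genes were that much higher and 4.69% that much lower in PEP-619WW. All 8 had ratios below 0, from -0.11 for Gbp3 and Gbp4 to -0.37 for Gbp9, with a median of -0.31 against -0.01 over all genes. With barcodes of exactly 1 gate Gbp3 (0.14), Gbp4 (0.021) and Gbp7 (0.00076) had ratios above 0. CD4 T cells also had 0 of 8 (6.38% higher and 6.66% lower among 8337 genes), with a median of -0.19, and Gbp9 stood apart at 0.37 (0.02 to 0.72). B cells had 0 of 8 (5.52% and 3.95% of 11882), with a median of -0.07 and Gbp2 at 0.08 (0.02 to 0.14). Plasma cells had 0 of 8 (4.54% and 4.28% of 11675), with a median of -0.18 and Gbp2 at 0.15 (0.07 to 0.23). Monocytes or macrophages had 0 of 8 (3.75% and 5.14% of 11052), with a median of -0.26, from -0.38 for Gbp5 to 0.09 (0.05 to 0.13) for Gbp2. The ratio of Gbp2 was thus above 0 in 3 gates in which the median of the family was below 0. It turned in 2 of these, to -0.062 in plasma cells of exactly 1 gate and to -0.19 in monocytes or macrophages with equal weight per barcode.

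Neutrophils of run 1 were the gate with the largest ratios. Gbp5 was at 203 CPM in the PEP-WT and 107 CPM in the PEP-619WW library, a log2 ratio of -0.92 (-1.07 to -0.78). Gbp9 was at -0.75 (-0.99 to -0.52), Gbp7 at -0.67 (-0.78 to -0.56) and Gbp3 at -0.61 (-0.80 to -0.42). These 4 of 8 members passed 1.5-fold in the lower direction, and 9.55% of 9282 genes did so, with 3.88% that much higher. Gbp6 at -0.58, Gbp2 at -0.41, Gbp4 at -0.33 and Gbp8 at -0.31 were lower by less than 1.5-fold, and at 2-fold the count was 0 of 8, against 2.19% of all genes. The median over all genes was -0.11, and relative to it the family sum was -0.41.

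The neutrophil gates of the 2 libraries differed in make-up. Barcodes with at least 5 UMIs of the granule genes Camp, Ngp and Ltf, which mark immature neutrophils, numbered 186 of 806 in PEP-WT and 365 of 864 in PEP-619WW. In these the family sum was 1181 and 797 CPM, a log2 ratio of -0.57 (-0.66 to -0.48). In the other 620 and 499 barcodes it was 2097 and 1795 CPM, a ratio of -0.22 (-0.28 to -0.17). In barcodes of the neutrophil gate alone it was -0.66 (-0.77 to -0.54), with Gbp2 at 1770.4 and 1019 CPM and Gbp5 at 363 and 186 CPM, while Gbp6 (0.031) and Gbp8 (0.10) turned to ratios above 0. The family sum was thus lower in PEP-619WW in each of these subsets, and the ratio was smallest in barcodes with few granule transcripts.

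**Figure D3:**
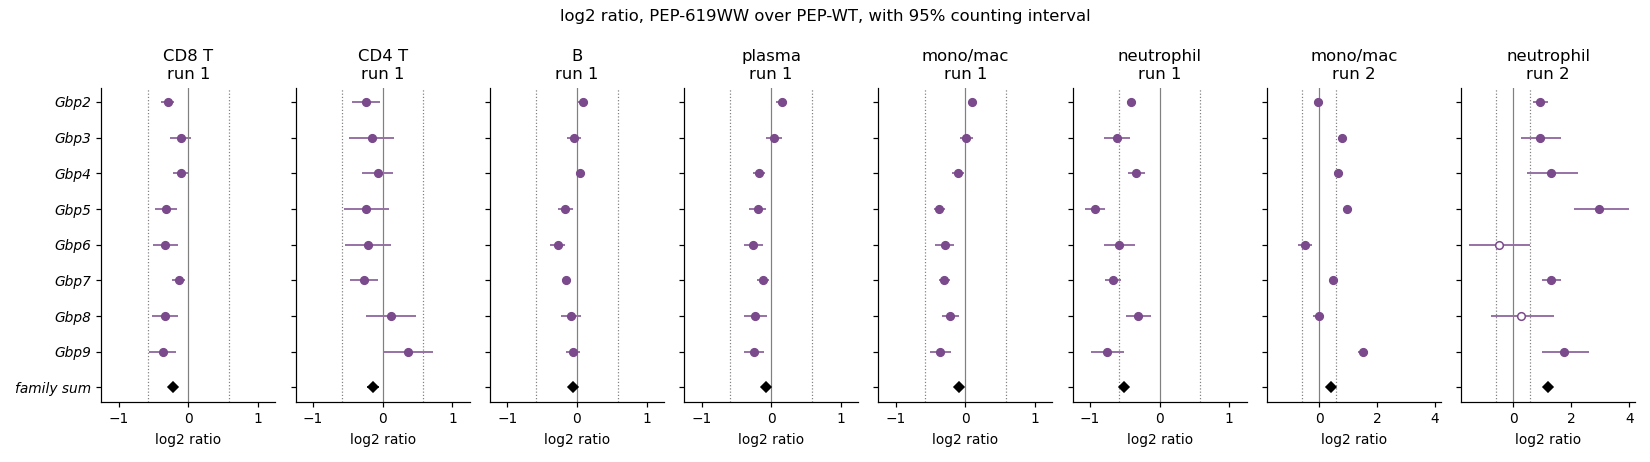
Log2 ratio of PEP-619WW over PEP-WT for each gene and the family sum (diamond), by gate and run, with 95% counting intervals. Solid lines mark 0 and dotted lines 1.5-fold, open circles are genes under 50 UMIs, and the x axis is wider for run 2. Neutrophils of run 1 lie left of 0 for all 8 genes, with Gbp5 at -0.92. In the S100a8/S100a9 gate of run 2, titled neutrophil here, 6 of the 8 lie right of it past 1.5-fold. Among all 7768 genes counted there, 27.5% were that much higher. Gbp3, Gbp4, Gbp5 and Gbp9 met the minimum of 50 UMIs through PEP-619WW alone.

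In run 2 the ratio of the family sum was above 0 in both myeloid gates, and single members with ratios of opposite sign in the runs, both intervals clear of 0, numbered 4 of 8 in the Lyz2 gate and 6 of 8 in the S100a8/S100a9 gate, where 14.5% of 10736 and 11.6% of 7520 genes were likewise below 0 in run 1 and above 0 in run 2. Levels there were lower, at 181 CPM (178 to 185) in PEP-WT and 243 CPM (238 to 249) in PEP-619WW barcodes of the Lyz2 gate and at 163 (146 to 181) and 369 (350.0 to 389) in the S100a8/S100a9 gate. The log2 ratios of the family sum were 0.43 (0.39 to 0.47) and 1.18 (1.01 to 1.35). In the Lyz2 gate 4 of 8 members were at least 1.5-fold higher in PEP-619WW, where 23.6% of 12364 genes were and 15.1% were that much lower. At 2-fold, 1 of 8 was, against 12.5% of all genes. They were Gbp9 at 1.52 (1.36 to 1.68), Gbp5 at 0.96 (0.81 to 1.12), Gbp3 at 0.80 and Gbp4 at 0.66, while Gbp6 was at -0.50 (-0.74 to -0.26) and Gbp2 at -0.03. In the S100a8/S100a9 gate 27.5% of 7768 genes were at least 1.5-fold higher and 10.6% that much lower. The members had 11 to 155 UMIs in PEP-WT there, and the minimum of 50 UMIs over both libraries is met more readily by genes high in PEP-619WW, so counts of genes in this gate are a description. Gbp2 was at 0.93 (155 and 549 UMIs) and Gbp7 at 1.30 (92 and 422). Gbp5 at 2.96 (2.08 to 3.99, from 11 and 159 UMIs), Gbp9 at 1.76, Gbp4 at 1.31 and Gbp3 at 0.93 met the minimum through PEP-619WW alone. Gbp6 at -0.48 (-1.52 to 0.59, from 15 and 20 UMIs) and Gbp8 at 0.27 (-0.76 to 1.39, from 12 and 27) did not meet it.

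The Lyz2 gate of run 2 held different cells in the 2 libraries. C1qa, a complement gene of macrophages, was found in 87.4% of its barcodes in PEP-WT but 37.2% in PEP-619WW, and Ccr2, a marker of inflammatory monocytes, in 31.8% and 85.9%. Within barcodes with C1qa and no Ly6c2 (5421 and 1198) the family sum was 169 and 181 CPM, a log2 ratio of 0.10 (0.02 to 0.17). Within barcodes with Ly6c2 and no C1qa (96 and 1386) it was 324 (277 to 377) and 359 (346 to 372) CPM, a ratio of 0.15 (-0.08 to 0.38). Within either subset the difference was smaller than in the whole gate, and Ly6c2 barcodes stood above C1qa barcodes in both libraries. Gbp9 kept a ratio of 1.29 in the C1qa subset and was at 0.07 in the Ly6c2 subset. CD8 and CD4 T gates of PEP-WT in run 2 had 28 and 12 barcodes, too few for a ratio, with family sums of 255 and 423 CPM beside 322 and 385 CPM in PEP-619WW.

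T cells of run 1 were split by activation. Among naive-like CD8 T barcodes, with Ccr7 or Lef1 and no Gzmb, the family sum was 792 CPM (756 to 829) in 339 PEP-WT barcodes and 510.5 CPM (464 to 560.0) in 79 PEP-619WW barcodes. Among effector-like barcodes, with Gzmb and neither Ccr7 nor Lef1, it was 620 CPM (597 to 642) and 564 CPM (543 to 587). The intervals of the 2 libraries did not overlap in either subset, and the gap was wider in naive-like cells. There Gbp2 was at 183 and 103 CPM, Gbp5 at 63.6 and 28.5 CPM and Gbp9 at 76.5 and 38.8 CPM. Both subsets require genes without a UMI, so membership depends on depth. Median UMIs per barcode were 4528 and 7520 in naive-like and 5743 and 7663 in effector-like CD8 T barcodes, PEP-WT first. The part of depth and of free RNA in these gaps was not tested. Naive-like CD4 T barcodes were at 742 (697 to 788) and 602 CPM (557 to 649). Naive-like barcodes stood above effector-like ones in PEP-WT CD8 T cells, and in PEP-619WW their intervals overlapped.

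**Figure D4:**
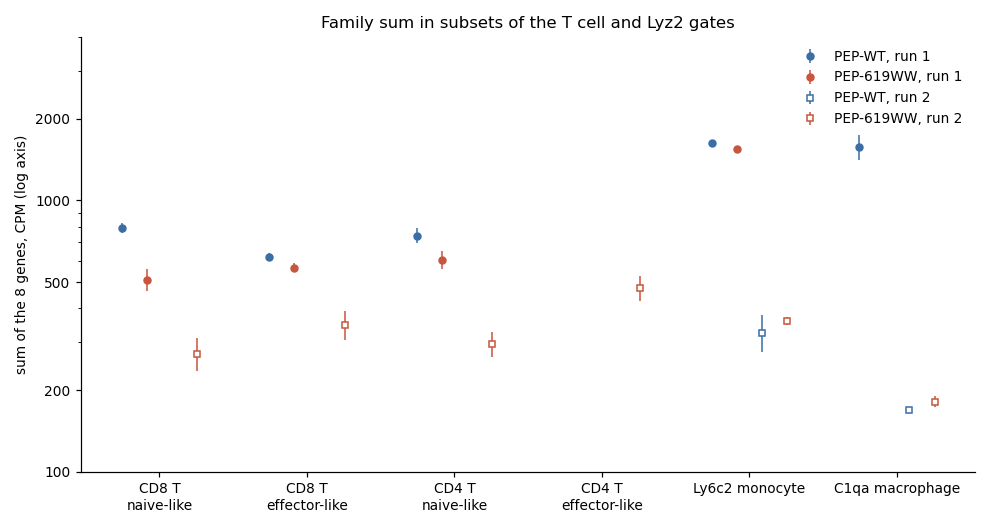
Sum of the 8 genes (CPM, log axis) in subsets of the T cell and Lyz2 gates with at least 50 barcodes, 1 point per library with its 95% Poisson interval. Naive-like CD8 T cells of run 1 stand at 792 in PEP-WT and 510.5 in PEP-619WW, and in run 2 the genotypes lie close together within the Ly6c2 and the C1qa subset.

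Other genes of the family and of interferon signalling were read in the same gates from lists of fixed membership. Gbp2b and Gbp10 are paralogs on chromosomes 3 and 5. Gbp2b had log2 ratios above 0 in all 6 gates of run 1 and passed 1.5-fold higher in 3 of them, where the share of all genes is given in brackets. It was at 41.6 and 77.2 CPM in monocytes or macrophages (log2 ratio 0.89, 3.75%), 8.15 and 15.6 CPM in B cells (0.93, 5.52%) and 9.68 and 27.2 CPM in CD4 T cells (1.49, 6.38%). In CD4 T cells Gbp2b had 32 and 76 UMIs, PEP-WT first, and met the minimum through PEP-619WW alone, so that call is a description. In the Lyz2 gate of run 2 it passed 1.5-fold lower (-1.17, 15.1%). Gbp10 had at least 50 UMIs in 3 gates of run 1 and passed 1.5-fold lower in each, at -0.83 in CD8 T cells (4.69%), -1.09 in B cells (3.95%) and -1.19 in plasma cells (4.28%). In plasma cells it had 82 and 33 UMIs, PEP-WT first, and met the minimum through PEP-WT alone, so that call is a description. The reservation on stretches shared with Gbp6 given above applies to these counts. Of the 7 immunity-related GTPases with a row, 0 passed 1.5-fold in CD8 T cells, CD4 T cells (6 with enough UMIs), plasma cells and monocytes or macrophages of run 1. Ifi47 passed it in B cells (-0.65, with 3.95% of all genes) and in neutrophils (-0.86, with 9.55%), and the list's median was between -0.42 in neutrophils and -0.08 in plasma cells. In run 2 the medians were 1.22 in the Lyz2 gate and 1.59 in the S100a8/S100a9 gate. Past 1.5-fold higher were 4 of 6 and 4 of 5 counted genes, where 23.6% and 27.5% of all genes were, and Iigp1 was lower in both (-1.09 and -0.78). In the S100a8/S100a9 gate Irgm2 (25 and 148 UMIs, PEP-WT first) and Igtp (41 and 229) met the minimum through PEP-619WW alone, so that count is a description.

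Of 8 genes of the interferon gamma axis, 0 to 2 were at least 1.5-fold lower in PEP-619WW in each gate of run 1, with 0 in monocytes or macrophages, and 0 were that much higher in any, where 3.95% to 9.55% of all genes were lower. In run 2 the Lyz2 gate had 6 of 8 higher, against 23.6% of all genes, and the S100a8/S100a9 gate 5 of 7 counted genes, against 27.5%. In the Lyz2 gate Ifng (18 and 65 UMIs, PEP-WT first) met the minimum through PEP-619WW alone, so that count is a description. In run 1 Ifng was at 190.0 and 239 CPM in CD8 T cells (0.33) and 105 and 148 CPM in CD4 T cells (0.50), higher in PEP-619WW by less than 1.5-fold. Of its receptor chains, Ifngr2 was lower in CD8 T cells (17.6 and 9.55 CPM, -0.88), CD4 T cells (-0.84) and plasma cells (-0.72). In CD4 T cells Ifngr2 had 68 and 32 UMIs, PEP-WT first, and met the minimum through PEP-WT alone, so that call is a description. Ifngr1 was at 183 and 241 CPM in CD8 T cells (0.40, under 1.5-fold) and at 0.42 in CD4 T cells. It was at 0.30 in plasma cells, 0.26 in monocytes or macrophages, 0.10 in B cells and -0.11 (-0.26 to 0.04) in neutrophils. Socs1, a feedback inhibitor of the pathway, passed 1.5-fold lower in 4 gates, at -0.69 in CD8 T cells, -0.73 in B cells, -0.60 in plasma cells and -0.81 in neutrophils. Irf1 was at -0.39 in neutrophils and -0.06 to -0.22 in the other gates.

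The list medians of type I interferon genes lay farther from 0 than those of the guanylate-binding proteins in each gate of run 1, although single genes overlapped. Isg15, Oasl2 and Ifi44 of this list are also genes that the paper reports as higher in PEP-WT CD4 T cells in its single-cell data. The list is thus not independent of that report. Of 9 genes, 7 were at least 1.5-fold lower in PEP-619WW in CD8 T cells, B cells, plasma cells and monocytes or macrophages of run 1, 4 in CD4 T cells and 8 in neutrophils, with the background shares given above. The medians were -1.29 in CD8 T cells, -0.46 in CD4 T cells, -0.90 in B cells, -0.80 in plasma cells, -0.90 in monocytes or macrophages and -1.35 in neutrophils. Isg15, a ubiquitin-like modifier, was at 1505 and 394 CPM in neutrophils (-1.93) and 878 and 301 CPM in monocytes or macrophages (-1.54). In run 2 the same list was higher in PEP-619WW, with 9 of 9 genes past 1.5-fold in the Lyz2 gate (median 1.30) and 8 of 8 counted genes in the S100a8/S100a9 gate (median 1.90), where 23.6% and 27.5% of all genes were. In the latter gate Ifit3 (30 and 429 UMIs, PEP-WT first) and Stat2 (38 and 258) met the minimum through PEP-619WW alone, so that count is a description. Whether the lists differ from each other was not tested.

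**Figure D5:**
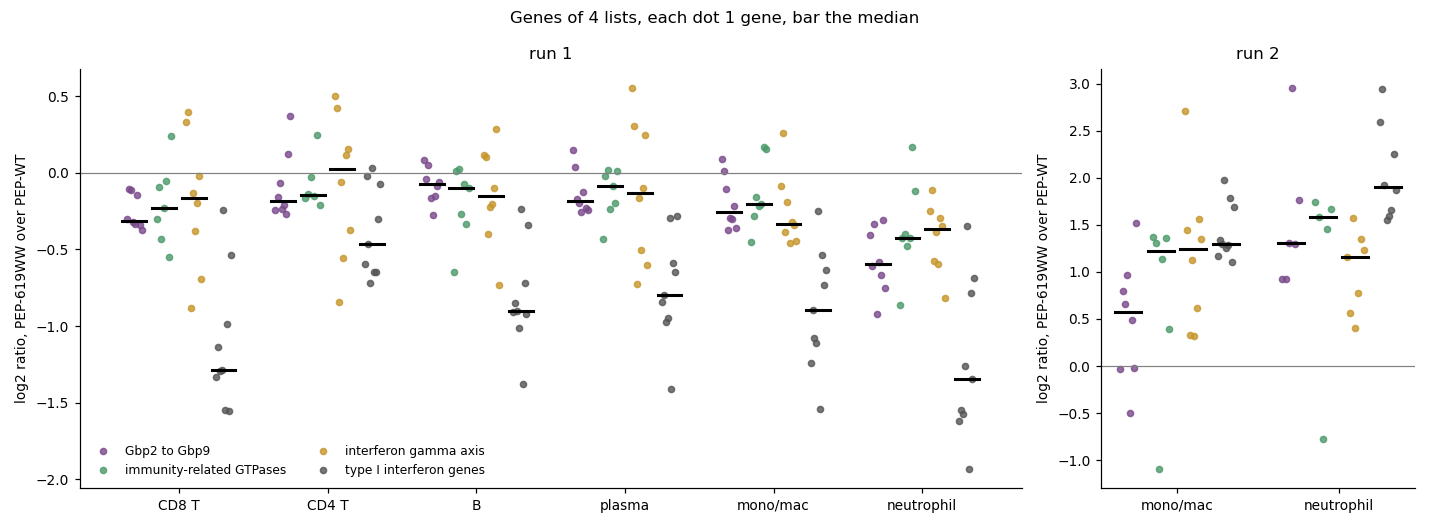
Log2 ratio of PEP-619WW over PEP-WT for single genes (dots) of 4 lists, by gate, with run 1 on the left and run 2 on the right and a bar at each list's median. Type I interferon genes lie lowest in run 1, at a median of -1.29 in CD8 T cells against -0.31 for Gbp2 to Gbp9, and lie above 0 in run 2.

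Among inflammasome genes, with which these proteins act, Casp4, the sensor of cytosolic lipopolysaccharide, was at 28.6 and 16.7 CPM in CD8 T cells (-0.78) and 103 and 62.8 CPM in neutrophils (-0.71) of run 1. Nlrp3, an inflammasome sensor, was at 5.33 and 2.39 CPM in CD8 T cells (-1.16, interval -1.82 to -0.53). It had 74 and 30 UMIs there, PEP-WT first, and met the minimum through PEP-WT alone, so its count below is a description. Of the PEP-WT CD8 T barcodes, 142 also passed the Lyz2 gate. Gsdmd, the pore-forming substrate of the caspases, was at -0.53 in CD8 T cells and -0.24 in neutrophils, under 1.5-fold in both. Of the 5 genes of this list, Casp4 and Nlrp3 passed 1.5-fold lower in CD8 T cells (against 4.69% of all genes), Casp4 passed it in plasma cells (-0.60, against 4.28%) and in neutrophils (against 9.55%), and 0 passed it in B cells, monocytes or macrophages and CD4 T cells (4 with enough UMIs). In run 2, 3 of 5 were past 1.5-fold higher in the Lyz2 gate, against 23.6% of all genes, and 2 of 5 in the S100a8/S100a9 gate, against 27.5%. In the latter gate Gsdmd (48 and 153 UMIs, PEP-WT first) met the minimum through PEP-619WW alone, so that count is a description.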

How the data were processed

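The deposited tables hold raw UMI counts per gene and barcode, which the authors made from 10x Genomics 3′ libraries. The submitters' processing notes name Cell Ranger 6.0.0 and mm10. Filters applied to barcodes before deposit are not given in the sources used here. Of 32285 gene identifiers, 32158 matched a symbol. The members, gates and gene lists were chosen with earlier results of these data known. All 8 members are named, with lists of other family members, immunity-related GTPases, interferon genes and inflammasome genes, and the 5 genes most like the family sum. Rows of Gbp11 and Gm12250 were not analysed here. Beside the 8 genes counted, a further gene of the interferon gamma axis list is not reported here. Counts were summed over barcodes of a gate and divided by the gate's total. Sums had exact Poisson and ratios exact conditional 95% intervals, and shares exact Clopper-Pearson intervals. Ratios needed 50 barcodes in each library, and counts of genes past 1.5-fold needed 50 UMIs over both. Depth was 55504449 to 77916082 UMIs per library. The ratio step was tested on simulated counts. No test between genotypes was made, since each had 1 library per run. Alternatives changed the scaling, the gates, the barcode filter, the weighting and the fold, and those on subsets of the Lyz2 and neutrophil gates were chosen after seeing the data. Scripts ran in Python (3.11.15) with scipy 1.17.1 for the intervals, pandas 2.3.3, numpy 2.4.6 and, for figures, matplotlib 3.10.9.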

Additional observations from a re-analysis of the deposited data

Results flagged for a closer look

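The ratio of PEP-619WW to PEP-WT had opposite signs in run 1 and run 2, with both counting intervals clear of 0, for the family sum in both myeloid gates. It was -0.10 in run 1 and 0.43 in run 2 in the Lyz2 gate, and -0.52 and 1.18 in the S100a8/S100a9 gate (log2). In the Lyz2 gate 4 members did the same: Gbp4 went from -0.10 to 0.66, Gbp5 from -0.38 to 0.96, Gbp7 from -0.30 to 0.49 and Gbp9 from -0.36 to 1.52. In the S100a8/S100a9 gate 6 members did: Gbp2 went from -0.41 to 0.93, Gbp3 from -0.61 to 0.93, Gbp4 from -0.33 to 1.31, Gbp5 from -0.92 to 2.96, Gbp7 from -0.67 to 1.30 and Gbp9 from -0.75 to 1.76. Over all genes counted in both runs, 14.5% in the Lyz2 gate and 11.6% in the S100a8/S100a9 gate were likewise below 0 in run 1 and above 0 in run 2, and the median of all genes went from -0.07 to 0.12 and from -0.11 to 0.23. Gbp6 and Gbp8 had too few UMIs in the S100a8/S100a9 gate of run 2. Gbp3, Gbp4, Gbp5 and Gbp9 had 24, 15, 11 and 16 UMIs there in PEP-WT. These members met the UMI minimum over both libraries through PEP-619WW alone, which favours genes high in PEP-619WW. The count of 6 members in this gate, and the 11.6% of all genes beside it, are therefore a description. In the Lyz2 gate the opposite sign of the family sum was lost with barcodes of exactly 1 gate (0.11 and 0.34) and without neutrophil-gate barcodes (0.051 and 0.38). Gbp4 turned to 0.094 in run 1 with barcodes of exactly 1 gate and to -0.31 in the Ly6c2 subset of run 2. The difference between runs was not tested, since each run has 1 library per genotype, and the cell make-up and sex markers of the libraries differ between the runs as described above.

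Barcodes that passed none of the 6 gates also carried the family. Hemoglobin-rich barcodes were not taken out of this no-gate group, so a comparison with them can hold the same barcodes on both sides. Per 1000000 UMIs other than hemoglobin and immunoglobulin the family sum of the no-gate group was 806 (783 to 829.5) in PEP-619WW of run 1. That was above the 369 (202 to 619) of hemoglobin-rich barcodes. In PEP-619WW of run 2 it was 296, with 1 hemoglobin-rich barcode and so no background. In PEP-WT it was 883 (866 to 899.9) in run 1 and 185 (175 to 195) in run 2, beside 809 (725 to 900.3) and 66.7 (13.8 to 195) in hemoglobin-rich barcodes, and those intervals overlapped.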

How the results depend on the processing

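No paired analysis was possible because each genotype had 1 library in each run and the labels share only 1 replicate number. Of 464 ratios of single members under alternatives, 429 kept the sign of the reported value. Of the 35 that did not, 23 belong to members whose reported interval included 0, and the other 12 are given here as reversed. With barcodes of exactly 1 gate the family sum moved in run 1 to -0.10 in CD8 T cells, -0.010 in CD4 T cells, -0.15 in plasma cells and -0.66 in neutrophils and reversed to 0.15 in B cells and 0.11 in monocytes or macrophages, and in run 2 it was 0.34 in the Lyz2 gate and 1.83 in the S100a8/S100a9 gate. The same setting reversed Gbp4 (0.021) and Gbp7 (0.00076) in CD8 T cells, Gbp7 in B cells (0.078), Gbp2 (-0.062) and Gbp7 (0.0084) in plasma cells, Gbp4 in monocytes or macrophages (0.094) and Gbp6 (0.031) and Gbp8 (0.10) in neutrophils of run 1. Doubled gate thresholds gave 0.039 in B cells (reversed, with Gbp7 at 0.0082), -0.027 in plasma cells, -0.062 in monocytes or macrophages and -0.58 in neutrophils of run 1, and 0.50 and 1.45 in the myeloid gates of run 2. Equal weight per barcode gave -0.33 in CD4 T cells, 0.021 in B cells (reversed), -0.35 in monocytes or macrophages (Gbp2 reversed to -0.19), -0.85 in neutrophils of run 1 and 1.68 in the S100a8/S100a9 gate of run 2. Scaling by the median ratio over genes gave -0.028 and -0.41 in the myeloid gates of run 1 and 0.31 and 0.95 in those of run 2. Without immunoglobulin and hemoglobin genes in the total the sum was -0.0024 in B cells, -0.031 in plasma cells and -0.066 in monocytes or macrophages. Fewer than 10 UMIs of Mt2 gave -0.18 in CD8 T cells. Of settings chosen after seeing the data, leaving out neutrophil-gate barcodes gave 0.051 (reversed) in run 1 and 0.38 in run 2 in the Lyz2 gate. Ly6c2 monocytes gave -0.067 in run 1 and 0.15 in run 2 (Gbp4 reversed to -0.31) and C1qa macrophages 0.10 in run 2. Neutrophils of run 1 gave -0.47 without T, B and plasma barcodes, -0.22 with few granule transcripts and -0.57 with many (Gbp8 reversed to 0.00039). At 2-fold, 0 members passed in neutrophils of run 1 and 1 in the Lyz2 gate of run 2. The cause of these changes was not tested. With 1 library per genotype, the intervals leave out the spread between mice.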
